A study of Homo sapiens with 12 samples.

Results

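Long noncoding RNA (lncRNA) genes made up 147 of the 3234 rows in the deposited tables, which come from DU145, an established line of human prostate cancer cells. A row was counted as a member when its GRCh38 annotation gave the gene the biotype lncRNA. Small nucleolar RNA host genes named SNHG, together with GAS5, and loci assembled by the authors were left out of the set. The table for RSL3 held 143 members among 1810 rows, or 7.9%, beside 1596 protein-coding genes. The table for ATOH8 held 4 members among 1424 rows, and 0 members were in both tables. For scale, 30.7% of the genes in the RefSeq GRCh38.p14 annotation are lncRNA genes.

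An lncRNA gene is transcribed, usually spliced and often polyadenylated like a coding gene, but its product carries no long open reading frame. Many lie antisense to a coding gene or start back to back with one, and others serve as hosts whose introns or exons are cut to release microRNAs or small nucleolar RNAs. A few have known roles in scaffolding protein complexes or regulating nearby genes, and for most no function is established. Several, such as H19, PVT1 and LUCAT1, are described in cancer cells and in cell stress.

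RNA was sequenced from 12 libraries in 4 groups of 3, all of DU145 cells, with no clone or pooling named. Cells labelled WT for genotype and given DMSO were compared with WT cells given RSL3 for 24 h. RSL3 inactivates GPX4, the enzyme that reduces lipid peroxides, and so triggers ferroptosis, an iron-dependent cell death. Cells labelled OE CTRL (oeCTRL below) were set beside cells labelled OE ATOH8 (oeATOH8), in which ATOH8, a transcription factor of the basic helix-loop-helix family, is overexpressed. The series title links ATOH8 and the lipid desaturase gene SCD to ferroptosis. Both deposited tables list only genes that the authors called changed, so an lncRNA outside them could not be assessed, and the share that passes a test is high by construction. The labels do not say whether replicates were separate cultures, so p-values measure only the spread between these samples, which may be technical. In bulk RNA, fewer cells of a kind and less RNA per cell cannot be told apart.

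The reads summed over listed genes ranged from 2523743 to 3096832 in the RSL3 table and from 1508188 to 2226518 in the ATOH8 table, and these sums are not library depths. In the RSL3 table, DMSO replicate 1 and RSL3 replicate 1 each differed from the other two libraries of their group. A chi-square statistic over its degrees of freedom was 1.65 between DMSO replicates 2 and 3 and 1.81 between RSL3 replicates 2 and 3, against 60.7 to 106 for pairs that include replicate 1. Folds are therefore also given for replicate 1 and for replicates 2 and 3. Of 7 epithelial markers, 3 were in the RSL3 table, with a summed level of 1005 to 1053 in DMSO and 195 to 393 in RSL3, and 1 of 11 macrophage markers (CD68) was listed, at 787 to 1607 and 1498 to 4290.3. Their part in the lncRNA results was not tested.

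Members that carry microRNAs in their transcribed span are listed first by the sequence they carry, since these short RNAs are the products that can be read directly from the annotation. The mature sequences come from RefSeq (GRCh38.p14), and the seed at bases 2 to 8 is in capitals. The 8 mature microRNAs found for 5 host members had 8 distinct seeds. The search may not have covered every member, so further hosts and their microRNAs could be missing. The microRNAs themselves were not measured here.
hsa-miR-210-3p: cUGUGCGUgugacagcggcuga
hsa-miR-675-5p: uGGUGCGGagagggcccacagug
hsa-miR-1915-3p: cCCCAGGGcgacgcggcggg
hsa-miR-4449: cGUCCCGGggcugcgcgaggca
The first lies in MIR210HG and the second in H19, both of which fell with RSL3. The third lies in MIR1915HG and the last in DANCR, both of which rose.

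Promoter sequence is shown for a pair of loci where an lncRNA and a coding gene start close to each other and both were listed. By GENCODE spans of the coding genes, LINC02593 and SAMD11 were the only listed pair that start head to head without overlapping, and SH3RF3-AS1 with SH3RF3 was chosen after its values were seen. Each window runs from 250 bases before to 50 bases after the RefSeq start (GRCh38.p14), 5′ to 3′ on the gene's own strand. Neighbour classes and distances elsewhere use GENCODE v29 spans of the coding genes. The GENCODE start of SAMD11 lies 1803 bp before its RefSeq start, and that of SH3RF3 lies 143 bp after. The windows are chr1:919643-919942 for LINC02593 (minus strand), chr1:925481-925780 for SAMD11 (plus strand), chr2:109130070-109130369 for SH3RF3-AS1 (minus strand) and chr2:109128955-109129254 for SH3RF3 (plus strand). Capitals mark CANNTG, the E-box that basic helix-loop-helix factors can bind, found on either strand.
LINC02593: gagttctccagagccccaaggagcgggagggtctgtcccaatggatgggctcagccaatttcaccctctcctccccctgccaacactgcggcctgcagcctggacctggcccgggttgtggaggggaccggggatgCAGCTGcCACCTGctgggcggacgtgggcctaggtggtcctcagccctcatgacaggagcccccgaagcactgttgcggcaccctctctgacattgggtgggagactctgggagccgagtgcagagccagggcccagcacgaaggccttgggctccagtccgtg
SAMD11: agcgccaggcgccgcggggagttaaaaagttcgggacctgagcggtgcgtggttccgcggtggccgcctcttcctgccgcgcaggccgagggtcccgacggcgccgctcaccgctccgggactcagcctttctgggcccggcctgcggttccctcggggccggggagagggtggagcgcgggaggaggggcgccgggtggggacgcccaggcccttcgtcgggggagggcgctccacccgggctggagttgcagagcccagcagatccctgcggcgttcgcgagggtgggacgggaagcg
SH3RF3-AS1: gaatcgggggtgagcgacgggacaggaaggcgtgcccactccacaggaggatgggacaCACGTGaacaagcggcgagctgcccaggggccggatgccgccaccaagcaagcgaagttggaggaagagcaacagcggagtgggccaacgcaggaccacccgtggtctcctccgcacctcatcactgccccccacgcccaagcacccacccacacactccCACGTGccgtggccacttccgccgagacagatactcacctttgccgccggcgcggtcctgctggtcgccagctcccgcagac
SH3RF3: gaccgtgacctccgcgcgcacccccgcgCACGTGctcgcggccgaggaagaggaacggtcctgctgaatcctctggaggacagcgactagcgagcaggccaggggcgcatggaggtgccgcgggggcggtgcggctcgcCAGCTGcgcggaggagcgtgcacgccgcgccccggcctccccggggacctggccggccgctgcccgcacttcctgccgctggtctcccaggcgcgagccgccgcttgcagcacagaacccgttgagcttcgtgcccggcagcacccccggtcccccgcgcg
The LINC02593, SH3RF3-AS1 and SH3RF3 windows held 2 E-boxes each, and the SAMD11 window held 0. These matches describe letters only.

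Across the 107 members with a RefSeq promoter window, one window per gene, 66.4% held CANNTG, against 68.7% of all 35116 windows of the same length. The full set of windows includes coding genes and was not reduced per gene in this way, so the shares are over unlike sets. The hypoxia response element core ACGTG, which overlaps the E-box CACGTG, was in 25.2% of member windows and 21.4% of all windows. The antioxidant response element core TGACNNNGC was in 21.5% and 13.3%. The amino acid response core TGATGNAAT was in 0 member windows against 0.991% of all, and the interferon response element was in 0.935% against 3.57%. All were searched on both strands, and no test was made of these shares.

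With RSL3, 71 of the 143 lncRNA genes were higher and 72 were lower. Among all listed rows 52.9% were higher and 47.1% lower. The limma test could be applied to 128 members, since 15 had too few reads, and 116 of them passed at an adjusted p under 0.05, or 90.6% against 82% of all listed genes tested. Of these, 54 rose and 62 fell, where 43.1% of all tested genes rose and 38.9% fell. The groups did not overlap in 134 of 143 members, against 86.4% of all listed rows and 87% of those tested. With about as many members higher as lower, the median log2 ratio of group means depended on which were counted. It was -0.52 over the 143 members, 0.57 over the 100 that are lncRNA genes in both annotations (54 higher and 46 lower) and 0.50 over all listed rows, and the median limma log2 fold change of the 128 tested members was -0.02.

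The members were detected with few reads. Their median level was 38.8 normalised reads over the 6 libraries, not corrected for gene length, against 262 for all listed rows. The 64 members with a mean of at least 50 had 36 higher and 28 lower, with a median log2 ratio of 0.55, beside 0.57 for all listed rows above that mean. The 79 members under 50 had 35 higher and 44 lower, with a median of -1.06.

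**Figure D1:**
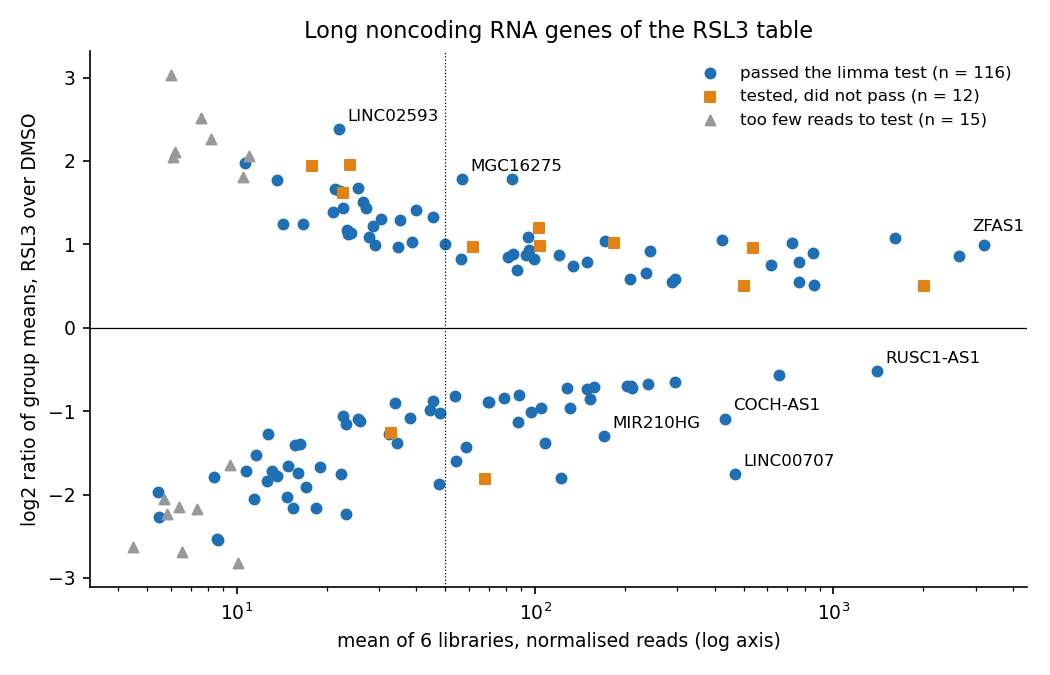
Each point is 1 of the 143 lncRNA genes of the RSL3 table, with its mean over 6 libraries in normalised reads on a log axis and its log2 ratio of group means (RSL3 over DMSO). The dotted line marks a mean of 50, and the 79 genes to its left include all 15 that had too few reads to test.

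The direction was the same in replicate 1 as in replicates 2 and 3 for 143 of 143 members, and differed for 8 of the 1810 listed rows. Since rows were listed for a change in these same libraries, such agreement is favoured by the listing.

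**Figure D2:**
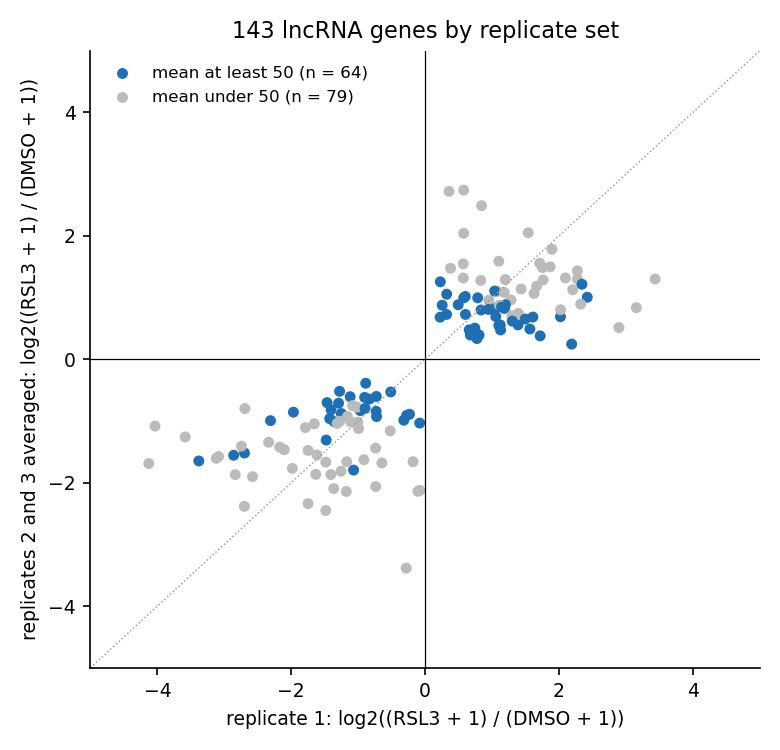
Log2 ratio of RSL3 over DMSO after adding 1, in replicate 1 and in the average of replicates 2 and 3, for the 143 lncRNA genes, with blue for a mean of at least 50. All points have the same sign on both axes, and many lie off the dotted line of equal ratios.

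The number of members called depended on single libraries and on the scale, and the sign did not. Under each alternative fit of the 128 tested members, 64 were higher and 64 lower, and 0 changed sign. The rows were listed because the authors called them changed in these same libraries, so a kept sign was set in part by the listing. Leaving out DMSO replicate 2 or DMSO replicate 3 left 0 members past the test, leaving out RSL3 replicate 2 left 26 and leaving out RSL3 replicate 3 left 23, in a table where replicate 1 stands apart. Since only called genes are listed, every annotated RefSeq gene was also counted as a test, and then 0 members passed by limma (0% of listed genes), with 119 at an unadjusted p under 0.05, and 6 by DESeq2. When the libraries were scaled over the listed genes, the calls were 15 higher and 60 lower by trimmed mean of M values, 11 and 60 by relative log expression and 2 and 52 by listed totals. The first of these scalings moved the median log2 fold change of all tested genes by -0.29, the second by -0.31 and the last by -0.47.

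By name, 52 members carry an antisense symbol, of which 19 rose and 22 fell among 47 tested. The 34 members known only by a LOC or clone name had 8 that rose and 18 that fell among 28 tested. Of 16 members named LINC, 6 rose and 7 fell among 15 tested, and of 12 named as divergent transcripts, 4 rose and 6 fell among 11 tested. Over all tested genes of the RSL3 table, a list of called genes, 43.1% rose and 38.9% fell. The 5 readthrough genes, whose transcripts run from one coding gene into the next or use its exons, all rose.

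The 3 members found to host small nucleolar RNAs rose with RSL3 on the authors' scale, and calls of rises depended on the scale, as given above. Small nucleolar RNAs guide the chemical modification of ribosomal RNA and are cut from the introns of their hosts, whose spliced transcript is what was counted here. ZFAS1, which hosts SNORD12, SNORD12B and SNORD12C, read 2938, 1697 and 1807 normalised reads in DMSO replicates 1, 2 and 3, and 6484, 3177 and 3121 in RSL3. Replicate 1 was the highest library in each group, and the groups did not overlap. ZFAS1 rose 1.98-fold (log2 fold change 0.94, SE 0.34, limma adjusted p = 0.0425).

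DANCR, a host of SNORA26, read 839, 484 and 463 in DMSO and 1447, 955 and 936 in RSL3. It rose 1.87-fold (limma adjusted p = 0.0364), by 1.72-fold in replicate 1 and 2.00-fold in replicates 2 and 3. EPB41L4A-AS1, the host of SNORA13, read 333, 252 and 243 in DMSO and 941, 392 and 387 in RSL3. Its 2.08-fold rise (limma adjusted p = 0.0464) was 2.83-fold in replicate 1 and 1.57-fold in replicates 2 and 3. These 3 were the only members of a list of 12 scaffold and housekeeping lncRNAs in the table. The 9 hosts named SNHG or GAS5, left out of the member set, were all higher, where 52.9% of all listed rows were higher. Of these hosts 7 passed, or 77.8%, against 82% of all listed genes tested.

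Of 34 microRNA host genes on a list, 2 were in the table and they moved in opposite directions. MIR210HG (chr11:565657-568457, minus strand), host of the hypoxia-induced miR-210, read 354, 175 and 197 in DMSO and 89.8, 97.6 and 107 in RSL3. Its level fell 2.47-fold (log2 fold change -1.23, SE 0.30, limma adjusted p = 0.0255). The fall was 3.94-fold in replicate 1, where the DMSO library was high, and 1.82-fold in replicates 2 and 3. MIR1915HG (chr10:21492658-21497260, minus strand) read 562, 438 and 437 in DMSO and 1292, 814 and 802 in RSL3, and rose 2.02-fold (log2 fold change 0.99, SE 0.24, limma adjusted p = 0.0243). H19, the imprinted host of miR-675, read 139.6, 89.3 and 107 in DMSO and 63.7, 59.1 and 69.4 in RSL3. H19 fell 1.75-fold (limma adjusted p = 0.0399), with no overlap of the groups.

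The largest decreases among passing members with a mean of at least 50 were in overlapping lncRNA genes of chromosome 10, LOC105376387 (3.50-fold) and LINC00707 (3.37-fold). LINC00707 (chr10:6779598-6842906, plus strand) read 569, 826 and 775 in DMSO and 86.9, 279.5 and 278 in RSL3. LOC105376387 (chr10:6837774-7119993, minus strand) read 143, 233 and 196 in DMSO and 18.8, 72.2 and 72.3 in RSL3. In both genes RSL3 replicate 1 was the lowest library and the fall was larger in replicate 1 (6.55-fold and 7.59-fold) than in replicates 2 and 3 (2.87-fold and 2.96-fold). No coding gene lies within 10 kb of either, and since strandedness is not given in the sources used here, reads in the stretch they share cannot be told apart.

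LEISA1, inside the neuronal guidance gene NAV2 on the other strand, read 64.8, 84 and 96.9 in DMSO and 30.4, 23.5 and 27.2 in RSL3 and fell 3.03-fold (limma adjusted p = 0.0147). FAM83A-AS1 read 179, 140.5 and 148 in DMSO and 63.7, 58.2 and 57.2 in RSL3. It fell 2.61-fold with a limma adjusted p of 0.0143, and the fall was similar in replicate 1 (2.81-fold) and in replicates 2 and 3 (2.50-fold). The others of the 12 largest decreases were ELF3-AS1 (2.68-fold), MIR210HG, LINC02577 (2.19-fold), COCH-AS1 (2.13-fold), HCP5 (2.02-fold), LUCAT1 (1.95-fold), ATP6V1B1-AS1 and LOC400627 (1.86-fold each). COCH-AS1 was among the higher expressed of these, with 526, 599 and 637 in DMSO and 195, 319 and 314 in RSL3.

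The largest increases among passing members with a mean of at least 50 and no overlap of the groups were in LINC00999 (3.44-fold) and MGC16275 (3.43-fold), and the size of both depends on 1 library. LINC00999 read 46.2, 33.6 and 33.2 in DMSO and 252, 69.4 and 66.6 in RSL3, and MGC16275 read 28.6, 20.6 and 27.9 in DMSO and 149, 60 and 55.4 in RSL3. RSL3 replicate 1 was the highest library for each. Without it LINC00999 was still 1.81-fold and MGC16275 2.24-fold higher, and RSL3 replicates 2 and 3 lay above every DMSO library for both. Both rose by the limma test (adjusted p = 0.0407 and 0.0278).

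MELTF-AS1 rose 2.13-fold, with 86.8, 42 and 53.2 in DMSO and 179.5, 113 and 94.8 in RSL3. NIPBL-DT, transcribed away from the cohesin loader gene NIPBL, read 102, 119.9 and 115 in DMSO and 314, 185 and 194 in RSL3, and rose 2.06-fold (limma adjusted p = 0.028). The rest of the 12 largest increases were CZ1P-ASNS (2.11-fold), EPB41L4A-AS1, MIR1915HG, ZFAS1, ITPR3-AS1 (1.91-fold), LINC02983 (1.90-fold), DANCR and LINC01271 (1.84-fold). LINC01271 overlaps LINC01270 on the other strand, which rose 1.68-fold.

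**Figure D3:**
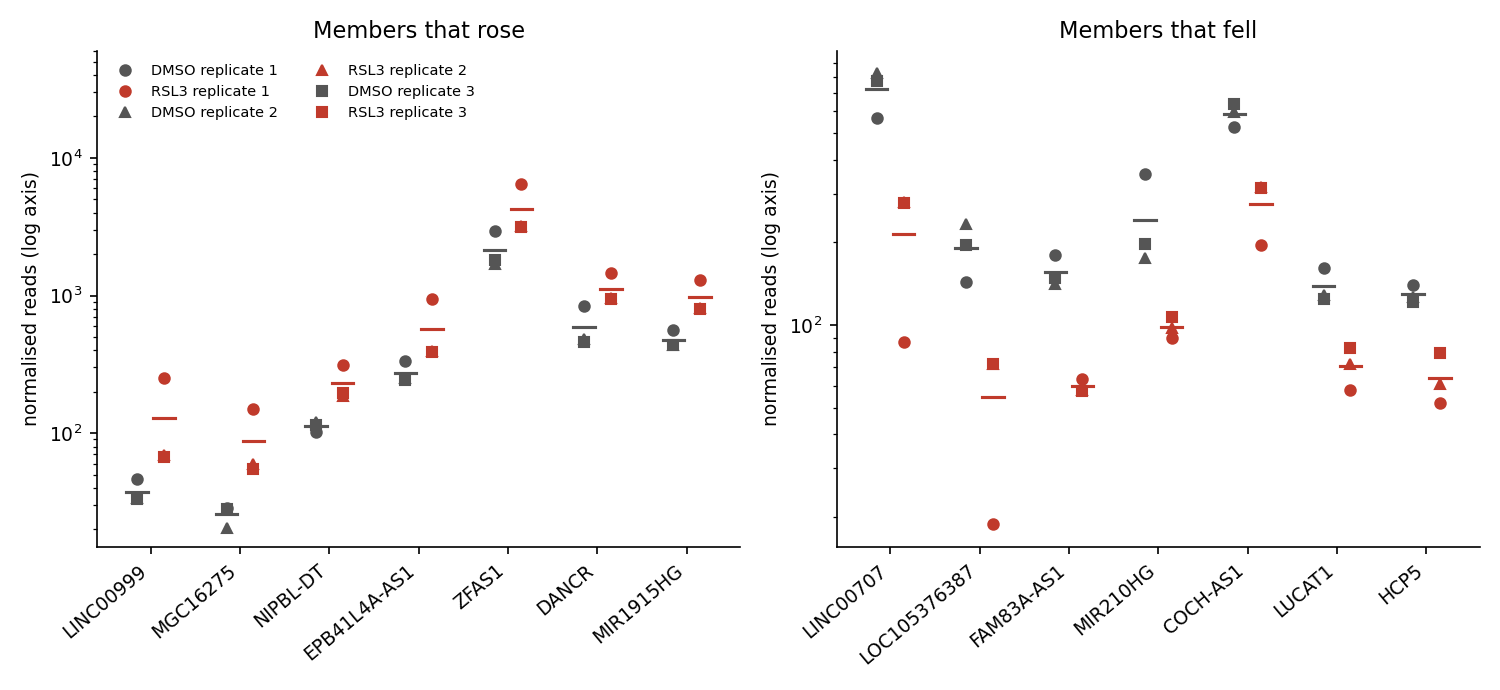
Normalised reads on a log axis for 7 lncRNA genes that rose and 7 that fell with RSL3, in DMSO (grey) and RSL3 (red) libraries, with a marker shape per replicate and a bar at each group mean. The groups do not overlap in any of the 14 genes. RSL3 replicate 1 is the most extreme treated library in all of them except FAM83A-AS1.

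Of 23 lncRNAs named in work on ferroptosis, 4 were in the table, and 2 rose (ZFAS1 and PVT1) while 2 fell (H19 and HCP5). PVT1, the neighbour of the MYC gene, read 621, 559 and 504 in DMSO and 1354, 771 and 793 in RSL3, a 1.73-fold rise (limma adjusted p = 0.04). HCP5, a transcript of the major histocompatibility class I region, read 139.6, 127 and 121 in DMSO and 52.1, 61 and 78.8 in RSL3 (limma adjusted p = 0.0256). HCP5 was also the only one of 17 listed interferon and antigen-region lncRNAs in the table. A list of 22 lncRNAs of stress, p53 and hypoxia had 4 in the table, 1 that rose (PVT1) and 3 that fell (MIR210HG, LUCAT1 and H19).

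LUCAT1, a stress-responsive lncRNA first described in smoke-exposed airway cells, read 162, 128 and 125 in DMSO and 57.9, 72.2 and 82.6 in RSL3 (limma adjusted p = 0.0278), with no overlap. HIF1A-AS2, antisense to the hypoxia factor gene HIF1A and named here after its values were seen, read 39.6, 128 and 150.1 in DMSO and 2.90, 41.3 and 46 in RSL3. The ranges overlapped and HIF1A-AS2 did not pass (limma adjusted p = 0.059), although it did with the replicate number as a block (0.00544). Of 59 lncRNAs described in prostate and other tumours, 3 were listed: H19, which fell, and ELFN1-AS1 (2.67-fold) and FOXD3-AS1 (1.83-fold), which rose. Of 18 lncRNAs of the HOX clusters, HOXC13-AS rose 3.20-fold, from 12.1 ± 2.98 to 38.8 ± 8.72 (SD, n = 3), and HOXB-AS3 fell 2.60-fold, from 49.9 ± 6.23 to 19.2 ± 7.46.

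Each member was set beside its coding neighbours, taken as every coding gene whose span it overlaps or else the nearest one within 10 kb. Of the 143 members, 117 had such a neighbour and 26 had none. The neighbour was itself listed in the RSL3 table for 27 members, which made 31 pairs, and 90 members had neighbours outside the table. In 31 of 31 pairs the lncRNA and the coding gene differed from DMSO in the same direction, and both passed the test in 25. The pairs came in 20 antisense overlaps, 8 sense overlaps and 3 without overlap. For coding genes paired with coding neighbours by the same rule, the direction was the same in 58 of 61 antisense overlaps (95.1%) and 23 of 25 sense overlaps (92%). Over all 168 coding pairs, which include many without overlap, it was the same in 147 (87.5%), and both genes passed in 114. Coding pairs were counted from each gene's side, so genes that are each other's neighbour enter again, while each lncRNA pair enters a single time. Distinct coding pairs are therefore fewer than these counts. No test was made of the difference between lncRNA and coding pairs.

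**Figure D4:**
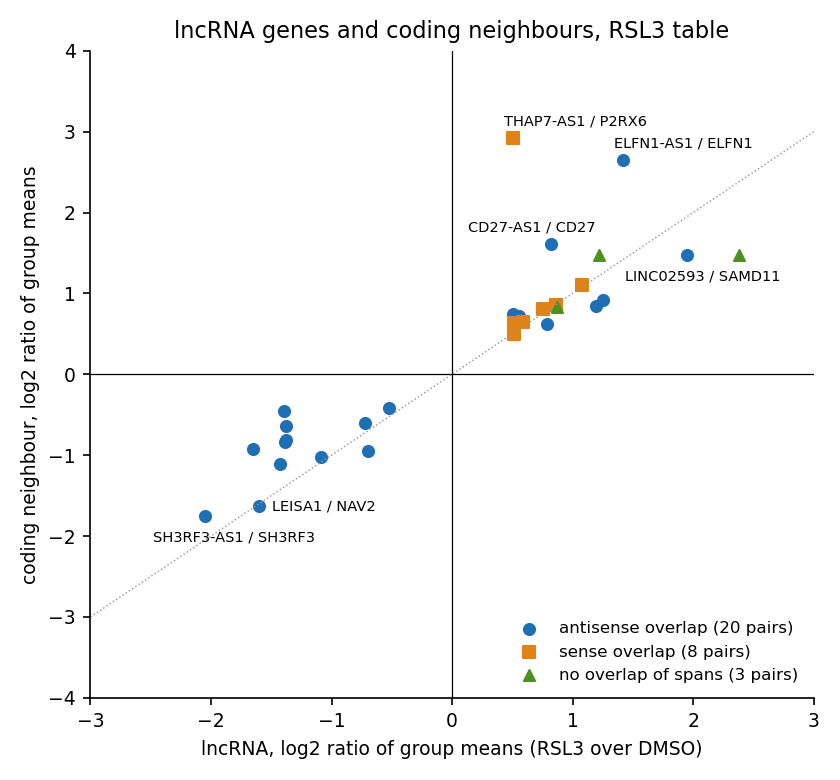
Log2 ratio of group means (RSL3 over DMSO) of the lncRNA and of its coding neighbour for 31 pairs of the RSL3 table, by how the spans lie, with a dotted line of equal ratios. All 31 points have the same sign on both axes, with THAP7-AS1 and P2RX6 far above the line.

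GENCODE v29 exon models were at hand for 25 pairs. In 18 the exons of the lncRNA overlapped those of the coding gene, over 2.32% to 95% of the lncRNA's exon bases. Among the 17 antisense overlaps with exon models, 14 shared exon bases. Strandedness is not given in the sources used here, so reads in bases shared by antisense genes cannot be told apart. The gene models behind the deposited counts are not given, so sharing by those models is not known. In the other 7 pairs no exon base was shared, the direction was the same in 7 of 7 and both genes passed in 7. These were FAM83A-AS1, ELFN1-AS1 and SH3RF3-AS1 with the genes that name them, LINC02593 and LOC284600 with SAMD11, ANXA2R-OT1 with ANXA2R, and MINCR with GLI4. Intronic reads or reads past a gene's end could still be counted for the partner, and their part was not tested.

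Among antisense pairs, SH3RF3-AS1 and the ubiquitin ligase gene SH3RF3, whose starts lie 771 bp apart by GENCODE and 914 bp by RefSeq, both fell. SH3RF3-AS1 read 16.5, 16.8 and 21.8 in DMSO and 5.79, 5.63 and 1.88 in RSL3 (4.14-fold). SH3RF3 read 34.1, 26.7 and 32.3 in DMSO and 14.5, 6.57 and 6.57 in RSL3 (3.37-fold). The groups did not overlap for either gene, and all of these levels are low.

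ELF3-AS1 fell 2.68-fold beside ELF3, an epithelial transcription factor, which fell 2.17-fold from 2354, 1593 and 1660.0 to 669, 955 and 965. ELF3-AS1 itself read 104, 87.8 and 63.7 in DMSO and 20.3, 42.2 and 32.8 in RSL3. COCH-AS1 and COCH, the gene of the matrix protein cochlin, fell 2.13-fold and 2.04-fold, with 47.6% of the exon bases of COCH-AS1 shared. FAM83A fell 1.78-fold, less than its antisense partner, from 18269, 10291 and 10282 to 7486, 7139 and 7202.1. LEISA1 and NAV2 fell 3.03-fold and 3.10-fold.

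HOXB-AS3 overlaps HOXB5 and HOXB6, developmental transcription factor genes that fell 1.76-fold and 1.56-fold. RUSC1-AS1, which overlaps FDPS of the isoprenoid and sterol pathway, read 1990.5, 1434 and 1509 in DMSO and 1394, 995 and 1044 in RSL3. It fell 1.44-fold, just inside the threshold, and FDPS fell 1.34-fold from 13172 ± 520 to 9838 ± 82.8 (SD, n = 3). LIMD1-AS1 (1.65-fold), CEP250-AS1 (2.63-fold) and LOC105375431 (3.15-fold) also fell, beside LIMD1 (1.52-fold), the centrosome gene CEP250 (1.37-fold) and the mucin gene MUC3A (1.89-fold).

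On the higher side, ELFN1-AS1 read 31.9, 15.3 and 18.3 in DMSO and 69.5, 55.3 and 49.7 in RSL3. ELFN1, a synaptic adhesion gene, rose 6.25-fold beside it, from 16.5, 8.40 and 10.5 to 135, 46.9 and 39.4. ZNF503-AS2 rose 1.72-fold beside the zinc finger gene ZNF503 (1.54-fold), and LOC107985020 rose 2.38-fold beside MRC2, a collagen receptor gene (1.90-fold). CD27-AS1 rose 1.77-fold, from 71.5 ± 17.2 to 126 ± 34.4, and CD27, at 5.29 ± 2.10 and 16.2 ± 8.55 (SD, n = 3), rose 3.06-fold from very few reads. LNCOC1 (1.47-fold) rose beside LY6K (1.65-fold), and MINCR (1.83-fold) beside GLI4 (1.78-fold).

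THAP7-AS1 was 1.42-fold higher (limma adjusted p = 0.0512, and 0.0112 with the replicate block) beside THAP7 (1.68-fold) and, on its own strand, the ATP receptor gene P2RX6 (7.60-fold). EML2-AS1 was 2.29-fold higher, with 279 in RSL3 replicate 1 against 75 and 77 in RSL3 replicates 2 and 3, and did not pass (limma adjusted p = 0.113). Without RSL3 replicate 1 it was 1.21-fold higher. Of its exon bases, 95% were shared with EML2. ARHGAP5-AS1 fell 1.62-fold, while ARHGAP5 itself did not pass at 1.94-fold lower.

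Readthrough genes cannot be told apart from the coding genes whose exons they hold. CZ1P-ASNS, which runs into the asparagine synthetase gene ASNS, read 624, 1203 and 1267 in DMSO and 2539.7, 1962 and 2022 in RSL3. Its 2.11-fold rise was 4.07-fold in replicate 1 and 1.61-fold in replicates 2 and 3, and ASNS rose 2.15-fold. INO80B-WBP1 rose 1.82-fold with WBP1 (1.82-fold) and INO80B (1.81-fold, which did not pass). ATRIP-TREX1 rose 1.43-fold beside the DNA damage checkpoint gene ATRIP (1.41-fold) and the exonuclease gene TREX1 (1.55-fold). POLR2J2-UPK3BL1 rose 1.69-fold beside UPK3BL1 (1.75-fold), and INMT-MINDY4 rose 1.62-fold.

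At SAMD11, a gene of chromosome 1 coding for a sterile alpha motif protein, 3 lncRNA genes lie near its start, and all 3 were higher with the coding gene. LINC02593 (chr1:916818-919692, minus strand) starts 4236 bp from the GENCODE start of SAMD11 and 6039 bp from the RefSeq start, and read 7.69, 9.16 and 4.36 in DMSO and 10.1, 47.8 and 52.6 in RSL3. LOC284600 (chr1:905115-914782, plus strand) read 18.7, 24.4 and 8.73 in DMSO and 24.6, 51.6 and 44.1 in RSL3. LOC107985728 (chr1:920243-925604, minus strand) overlaps SAMD11 by its GENCODE span and starts 127 bp before it, head to head, by the RefSeq start. It read 5.50, 9.16 and 14.8 in DMSO and 8.69, 53.5 and 51.6 in RSL3. In each, RSL3 replicates 2 and 3 were high and RSL3 replicate 1 was near the DMSO level, and the ranges of LOC107985728 overlapped.

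**Figure D5:**
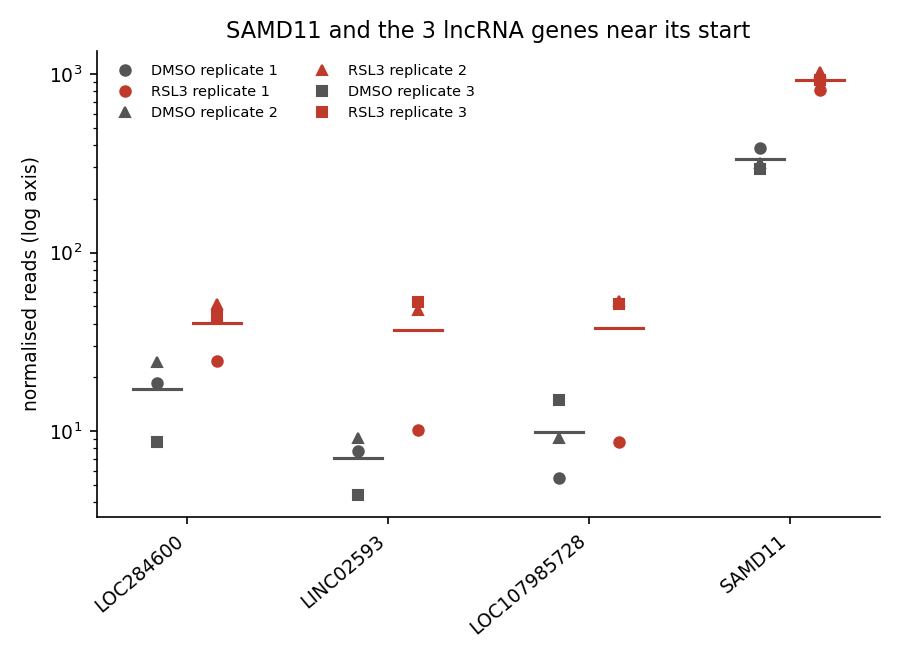
Normalised reads on a log axis for the 3 lncRNA genes near the start of SAMD11 and for SAMD11, in DMSO (grey) and RSL3 (red) libraries, with a marker shape per replicate and bars at group means. The red circles of replicate 1 lie near the grey points for the lncRNA genes, while all 3 RSL3 libraries of SAMD11 lie above DMSO.

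LINC02593 rose 5.21-fold (limma adjusted p = 0.0383), by 1.32-fold in replicate 1 and 7.42-fold in replicates 2 and 3. LOC284600 rose 2.32-fold, and LOC107985728 was 3.86-fold higher without passing (limma adjusted p = 0.0647, and 0.0157 with the replicate block). SAMD11 rose 2.77-fold, from 385, 319 and 292 to 814, 1026 and 921, so it was high in all 3 RSL3 libraries.

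By position, 77 members overlap a coding gene on the other strand, of which 26 rose and 36 fell among 71 tested. The 16 members that start head to head with a coding gene had 8 that rose and 4 that fell among 13 tested. The 26 members with no coding gene within 10 kb, LUCAT1, H19 and PVT1 among them, had 11 that rose and 12 that fell among 24 tested. Beside these, 43.1% of all tested genes in the RSL3 table rose and 38.9% fell. These classes were not tested against each other.

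The 15 members with too few reads to test had 7 higher and 8 lower. Their counts stayed small in every library, such as TGFB2-OT1, with 5, 28 and 30 reads under DMSO but 0, 6 and 2 under RSL3, which is named here after its values were seen. Their direction is that of the group means and was not tested.

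In the ATOH8 table the Ensembl identifiers were all protein-coding in GENCODE v29, so its 4 members are lncRNA genes by RefSeq only. As a check of the labels, ATOH8 itself was counted 13, 10 and 4 times in oeCTRL libraries and 76508, 72569 and 76043 times with the construct. Of the 4 members, 3 rose and 1 fell by edgeR, where 100% of the listed genes passed, 41.4% higher and 58.6% lower. The groups did not overlap in 4 of 4 members, against 99.6% of all listed rows. With all annotated genes and assembled loci counted as tests, 3 of the 4 passed, against 82.2% of listed genes.

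SYS1-DBNDD2 (chr20:45363200-45410610, plus strand), a readthrough of a Golgi protein gene into DBNDD2, was counted 2, 11 and 1 times in oeCTRL against 69, 126 and 150 times in oeATOH8. It rose 23.8-fold (edgeR log2 fold change 4.55, SE 0.61, adjusted p = 2.5e-05), and was 76.8-fold higher without oeCTRL replicate 2. ZNF8-ERVK3-1 (chr19:58278966-58315197, plus strand), a readthrough of a zinc finger gene into an endogenous retrovirus gene, read 13.6, 29 and 21.6 scaled reads in oeCTRL and 91.4, 181 and 161 in oeATOH8. It rose 6.75-fold (edgeR adjusted p = 3.06e-05). In both genes oeATOH8 replicate 1 was the lowest of its group. That library stood apart in the table, with a chi-square statistic over its degrees of freedom of 39.8 and 30.0 in its pairs. Between oeATOH8 replicates 2 and 3 it was 13.0.

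CT62 (chr15:71110244-71115500, minus strand), which lies opposite the gene THSD4, read 54.3, 51.8 and 47.3 in oeCTRL and 96.3, 109.8 and 105 in oeATOH8, a 2.03-fold rise (edgeR adjusted p = 0.00217). KCNJ5-AS1 (chr11:128899565-128906035, minus strand), antisense to a potassium channel gene, read 400.5, 402 and 476 in oeCTRL and 205, 101 and 120.3 in oeATOH8. It fell 3.00-fold (log2 fold change -1.58, SE 0.24, edgeR adjusted p = 6.41e-05). For CT62 and KCNJ5-AS1 too, oeATOH8 replicate 1 was the library of its group nearest to oeCTRL. The coding neighbours of these 4 members made 8 pairs, and 0 of the neighbours were in the table. Of 14 red blood cell markers, 3 were in this table, with a summed level of 4.11 to 12.6 in oeCTRL and 3224 to 55109 in oeATOH8. Of 8 fibroblast markers, 2 were listed, at 0 to 10.3 and 130.4 to 196, and of 7 epithelial markers, 2 were listed, at 17132 to 17480 and 5980 to 6704. The part of these markers in the lncRNA results was not tested.

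For 11 members of the RSL3 table a coding neighbour was listed in the ATOH8 table. The neighbour with ATOH8 had the direction that the lncRNA had with RSL3 in 9 of these and the opposite one in 2 (NEBL-AS1 with NEBL, and LOC102723675 with LGI2). For scale, 201 of the 251 genes listed in both tables, or 80.1%, had the same direction in both. Of the 11 lncRNA genes 8 passed the test with RSL3, all 8 in the direction of the neighbour, while NEBL-AS1 had too few reads, and BCAN-AS2 (limma adjusted p = 0.0516) and LOC102723675 (0.0574) did not pass. These lncRNA genes were themselves outside the ATOH8 table, and the comparisons share no libraries. SH3RF3 was counted 95, 86 and 94 times in oeCTRL against 19, 32 and 12 times in oeATOH8, and fell 4.41-fold (edgeR adjusted p = 0.000179). ELF3 fell 3.09-fold, FAM83A 2.06-fold and MUC3A 2.67-fold.

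OLMALINC (chr10:100373576-100388354, plus strand) lies 8742 bp after SCD, the stearoyl-CoA desaturase gene named in the series title. OLMALINC read 265, 293 and 326 in DMSO and 250.5, 175 and 126 in RSL3, and fell 1.60-fold (limma adjusted p = 0.0463). RSL3 replicate 1 was near the DMSO level, so that the fall was 1.06-fold in replicate 1 and 2.05-fold in replicates 2 and 3. SCD was not found among the rows listed for RSL3, so its change with RSL3 could not be assessed. In the ATOH8 table the counts of SCD were 38026, 36081 and 37906 for oeCTRL against 13840, 13139 and 14052 for oeATOH8. On the higher side, SIGLEC10-AS1 rose 2.70-fold with RSL3 and SIGLEC10 5.33-fold with ATOH8, and MHENCR rose 1.58-fold with RSL3 while GMEB2, whose start faces it at 194 bp, rose 2.29-fold with ATOH8.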

How the data were processed

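Per the submitters' processing notes, fastp, HISAT2, StringTie and DESeq2 were used on build hg38 (GRCh38); versions, roles, annotation and strandedness are not given in the sources used here. The deposited RSL3 table holds a signal per gene and library. All values (100% within a tolerance of 0.001) were whole multiples of one step per library, so whole reads were recovered. The deposited ATOH8 table holds raw counts, and its NC and OE columns were read as oeCTRL and oeATOH8.

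RSL3 rows were matched by position and strand to RefSeq GRCh38.p14 (105 members with the same span, 34 by overlap) and then to GENCODE v29 (4 members). ATOH8 rows took the RefSeq biotype, since GENCODE v29 gave 0 members. RSL3 values, left on the authors' scale, went into limma 3.58.1 (trended variance) as log2(value + 1), after filterByExpr of edgeR 4.0.16 (minimum count 10, minimum total 15) removed 78 of 1810 rows. ATOH8 counts were tested with edgeR's quasi-likelihood method, with the groups scaled so that the gap in log2 ratios, from -0.97 to 1.03, was centred on 0, which assumes that the authors' fold limits were symmetric. For RSL3 the plan was limma unless the deposited values were raw counts, which they are not. All tests took both directions, and p-values were adjusted by Benjamini-Hochberg over every listed gene tested, with a threshold of 0.05 (R 4.3.3). DESeq2 1.42.0 was an alternative. Folds are ratios of group means, and log2 fold changes of limma include the added 1, which understates low genes. Scripts were tested on simulated data.

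Named members were those on a list, with a coding neighbour in the same table, or among the 12 largest increases and decreases that passed with a mean of at least 50 and no overlap (50 for RSL3, 4 for ATOH8). The members and lists were chosen with earlier results of these data known. In the RSL3 table, samples with the same number deviated together from their group means (correlations 0.61, 0.47 and 0.44 for numbers 1, 2 and 3). Replicate 1 stood apart in both groups and no correlation was computed between different numbers, so pairing of numbers 2 and 3 is not shown. The replicate block takes the numbers as pairs, and the main test does not.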

Additional observations from a re-analysis of the deposited data

How the results depend on the processing

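Every lncRNA fold change of the named members kept its sign under each alternative of its table, which a list of called genes favours. Of the RSL3 members that passed, 54 higher and 62 lower, scaling over listed genes left 15 higher by trimmed mean of M values, 11 by relative log expression and 2 by listed totals, while the lower calls stayed within 1.5 times. With all 59792 annotated RefSeq genes counted as tests, limma called 0 higher and 0 lower (119 members had an unadjusted p under 0.05), edgeR on the recovered reads 0 and 0, and DESeq2 0 higher and 6 lower. Leaving out one library gave 0 to 47 higher and 0 to 52 lower. The pseudocount, the filter, edgeR, DESeq2 and the averaging of replicates 2 and 3 kept the counts within 1.5 times. With the replicate number as a block, 62 rose and 64 fell, and 0 and 0 with all annotated genes counted. In the ATOH8 table the numbers did not pair the samples (correlations 0.057, 0.048 and 0.088), and the replicate block left all 4 calls. Taking lncRNA genes from GENCODE, or from both annotations, left 0 higher and 0 lower in the ATOH8 table. The pairs with a neighbour in the table had the same direction in 28 of 28 by overlap only and 33 of 33 within 100 kb. The bounds on annotated genes, the listed totals, the averaging, leaving out replicate 1 of both groups or members that overlap a coding gene in sense, and GENCODE alone were chosen after seeing the data. The cause of these shifts was not tested. Low reads limit most members, and the lists of called genes limit all counts.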
